A study of Sus scrofa with 12 samples.

Results

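The genes described here encode acute phase proteins and major plasma proteins made by the liver, measured as mRNA in pigs of low and high residual feed intake (RFI). RFI is the feed a pig eats beyond what its growth and body weight predict, so that a low RFI stands for high feed efficiency. The members were all probe sets whose only gene symbol in the platform annotation is HP, CRP, LBP, ITIH4, HPX, ORM1, ALB, TTR or AHSG. This gave 21 probe sets of 9 genes, among 47845 probe sets on the array, of which 26426 carry a symbol for 13755 genes. HP, LBP and ITIH4 had 3 probe sets each, CRP, HPX and ALB had 2 each, TTR had 4, and ORM1 and AHSG had 1 each. All 21 were used, with no filter on low or variable values.

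Liver was taken at day 140 from commercial crossbred pigs of Large White × Landrace dams and Hylean Maxgro sires, which had free access to the same finisher diet and were sampled after feeding. RNA of 12 pigs was hybridized to porcine snowball arrays, 1 array per pig. The sample labels put 6 pigs in the low RFI class (P307, P308 and P309, males, and P310, P323 and P324, females) and 6 in the high RFI class (P301, P302 and P303, males, and P304, P317 and P318, females). The study compared no treatment and judged the selected pigs to be in good health, and the labels name no hybridization batch. By the methods, the classes hold siblings of like sex from the same litters, but the labels do not say which pigs are siblings, so that all tests are unpaired and leave this known pairing out. The values are log2 intensities, with a highest value per array of 14.13 to 14.26 and array medians of 3.48 to 3.53. Pig P317 of the high RFI class weighed most on the comparison over all probe sets, in which 15 were called with it and 1345 without it. The tissue label was checked on 10 hepatocyte markers, whose mean log2 value per pig lay between 11.08 and 11.48 in low RFI pigs and between 11.01 and 11.30 in high RFI pigs.

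The acute phase response is the change in plasma protein synthesis by which the liver answers infection, injury or inflammation. Cytokines, above all interleukin 6, act on hepatocytes through the receptor subunit gp130 (IL6ST) and the transcription factor STAT3, while interleukin 1 and tumor necrosis factor act through NF-kB and C/EBP factors. Positive acute phase proteins rise in plasma and negative ones fall. In pigs, haptoglobin, C-reactive protein and ITIH4 (also called pig major acute phase protein) belong to the positive proteins, and albumin, transthyretin and fetuin-A to the negative ones.

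No difference between the RFI classes was called in any of the 21 probe sets. In limma, 0 of 21 were called at a q-value under 0.30, the threshold of the study, with q-values from 0.733 to 0.870, while 0.0314% of all probe sets were called (15 of 47845, with 0.0272% higher and 0.00418% lower in low RFI pigs). At an unadjusted p under 0.05, it was 0 of 21 against 7.29% of all probe sets, and the classes did not separate completely in any of the 21, against 0.339% of all probe sets. The differences, low minus high RFI, ran from -0.37 to 0.14 on the log2 scale, 9 above and 12 below 0. Their median was -0.043, beside -0.012 over all probe sets. The signs follow the sample labels, and for TXNIP, IL6ST, TLR4, TTPA, MRC1, FOXA1 and GZMB, the transcripts on which this was checked, the labels give the opposite direction to the one in the paper. The exact two-sided permutation test over all 924 splits of the 12 pigs gave p-values from 0.171 to 0.948 for the single probe sets. With the filter on variable probe sets that the methods describe, 8 of the 21 were kept. Of these, 0 were called, against 2.66% of all kept probe sets. No probe set of CRP, LBP, ALB or TTR was kept, nor the bright one of HPX, so that this fit did not test them. Those kept included HPX SNOWBALL_040056 and AHSG, at means of 2.42 and 1.66, near or below background.

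**Figure D1:**
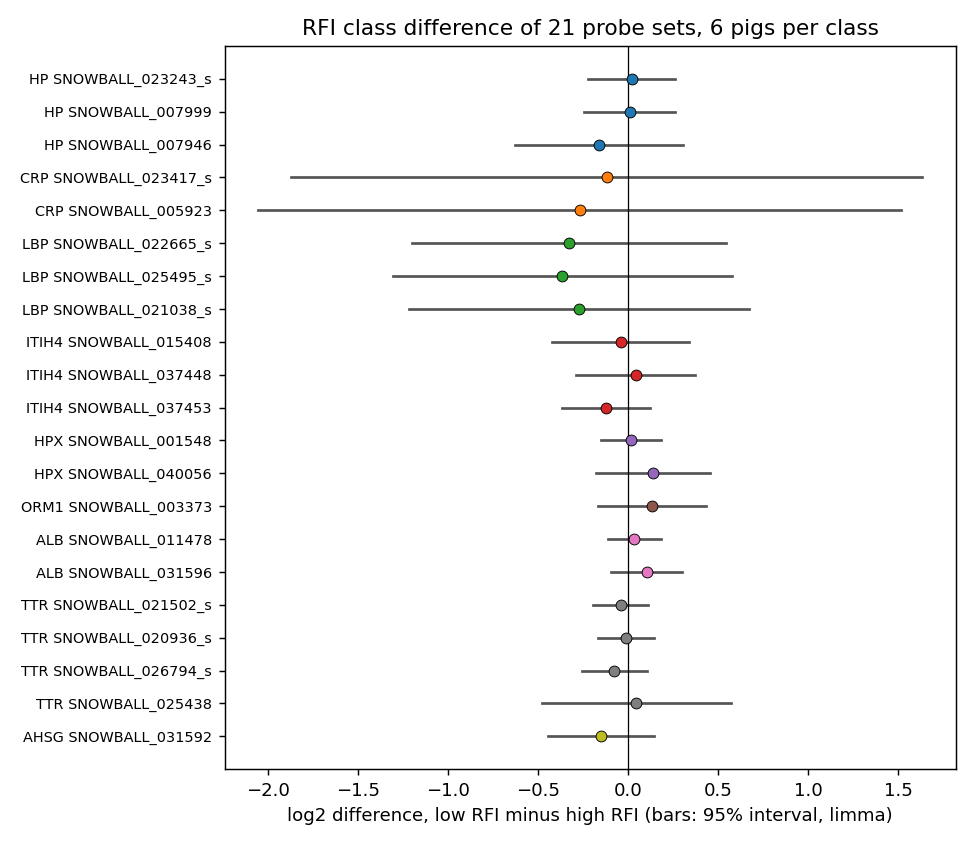
Log2 difference, low RFI minus high RFI, for each of the 21 probe sets (points), with the 95% interval from limma (bars, 6 pigs per class). All intervals cross 0, and they were widest for CRP and LBP, whose point estimates ranged from -0.37 to -0.12.

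The members differed in their spread among pigs, which was wide for CRP and LBP and narrow for ALB, TTR and HPX. CRP encodes C-reactive protein, a pentraxin that binds phosphocholine on microbes and damaged cells and activates complement. Through its brightest probe set, SNOWBALL_023417_s, low RFI pigs P307, P308 and P309 had log2 values of 9.77, 12.34 and 7.72, and P310, P323 and P324 had 11.64, 10.55 and 9.74. High RFI pigs P301, P302 and P303 had 6.96, 10.82 and 10.91, and P304, P317 and P318 had 11.02, 11.13 and 11.64. The lowest pig of each class, P309 and P301, lay far below the others, both are males, and the classes overlapped over most of the range. From the lowest to the highest pig, CRP spanned 41.8-fold.

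The mean of CRP was 10.29 ± 1.63 in low RFI pigs and 10.41 ± 1.72 in high RFI pigs (SD, n = 6 each). The difference was -0.12 (SE 0.82, q = 0.864 from limma), with a 95% interval from -1.87 to 1.63, that is a fold from 0.273 to 3.10. The other probe set, SNOWBALL_005923, gave the same order of size, with 8.98 ± 1.86 in low RFI pigs and 9.25 ± 1.54 in high RFI pigs (SD, n = 6 each), and followed the first closely over the 12 pigs (r = 0.99 for deviations from class means, permutation p = 3e-05, rho = 0.97 with permutation p = 0.00014, r = 0.99 without the 2 pigs farthest from the median). By their SD over all pigs, the CRP probe sets ranked 14 and 15 among all 47845. The RefSeq gene table of the assembly Sscrofa11.1 holds 2 neighboring genes named CRP, and the probe sets could not be assigned to one of them.

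LBP encodes lipopolysaccharide-binding protein, which hands bacterial lipopolysaccharide to CD14 and so to the receptor TLR4. Through SNOWBALL_022665_s, low RFI pigs P307, P308 and P309 had 10.75, 10.19 and 9.07, and P310, P323 and P324 had 9.89, 8.02 and 9.80. High RFI pigs P301, P302 and P303 had 10.38, 9.72 and 10.46, and P304, P317 and P318 had 9.55, 8.92 and 10.67. Each class thus held pigs near the top and near the bottom of the range, which spanned 6.66-fold, and the lowest pigs were females (P323 and P317), not the males that were lowest in CRP.

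The mean of LBP was 9.62 ± 0.96 in low RFI pigs and 9.95 ± 0.67 in high RFI pigs (SD, n = 6 each), a difference of -0.33 (SE 0.41, q = 0.783 from limma, 95% interval from -1.20 to 0.54). All 3 probe sets gave a difference below 0, from -0.37 to -0.27, and agreed in the order of pigs with r between 0.98 and 0.99 over 12 pigs (permutation p between 1e-05, the smallest that the permutations can give, and 4e-05, rho between 0.98 and 0.99 with permutation p between 1e-05 and 7e-05, r between 0.98 and 0.99 without the 2 pigs farthest from the median). The sign of the LBP difference turned when the level of background controls was added to the fit. A set of GC-rich background controls (GC count 17 to 24), designed to match no transcript, averaged 6.55 ± 0.08 in low RFI pigs and 6.69 ± 0.11 in high RFI pigs (SD, n = 6 each). With this background as a covariate, the differences of the LBP probe sets lay between 0.26 and 0.44, still not called (unadjusted limma p between 0.381 and 0.587). The background itself averaged lower in low RFI pigs, so that its part and that of RFI class cannot be told apart here. With the same covariate, the differences of the CRP probe sets were -0.90 and -0.99, also not called. Over 12 pigs, LBP and this background had r = 0.50 (permutation p = 0.103, adjusted p = 0.691 over 9 genes), rho = 0.29 (permutation p = 0.380), and r = -0.14 without pigs P317 and P323.

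**Figure D2:**
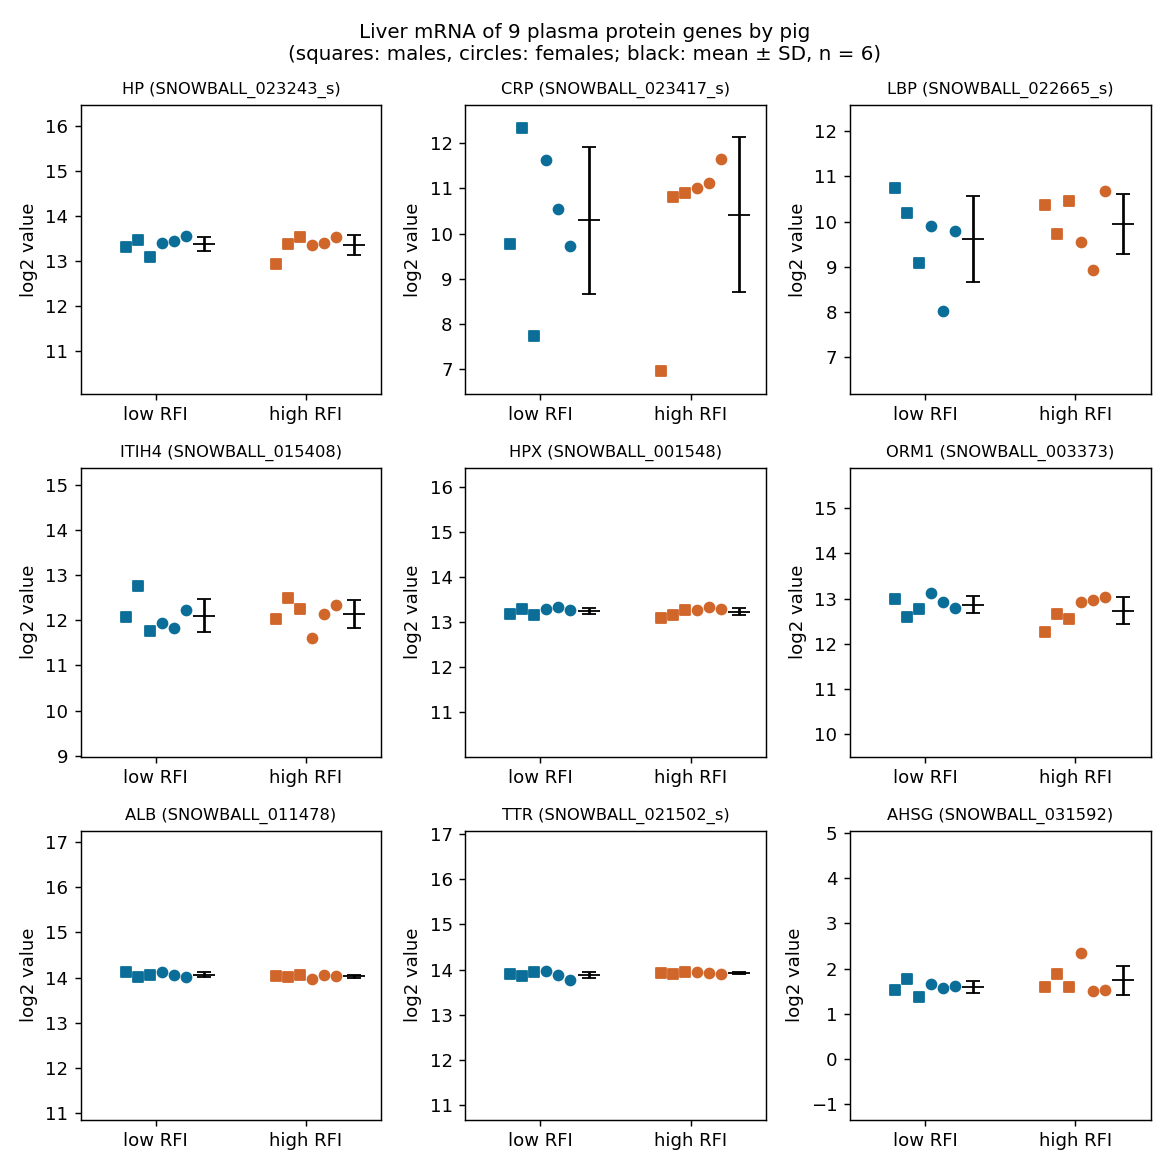
Log2 value of each pig through the brightest probe set of each gene, with low RFI pigs left and high RFI pigs right in each panel (squares: males, circles: females, black: mean ± SD, n = 6). Every panel spans the same length of the log2 scale, so that the wide scatter of CRP and LBP can be set beside the narrow one of HP, HPX, ALB and TTR.

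HP encodes haptoglobin, which binds free hemoglobin, and the complex is taken up by macrophages through CD163. Through SNOWBALL_023243_s, low RFI pigs P307, P308 and P309 had 13.31, 13.46 and 13.10, and P310, P323 and P324 had 13.41, 13.45 and 13.55. High RFI pigs P301, P302 and P303 had 12.95, 13.38 and 13.53, and P304, P317 and P318 had 13.36, 13.41 and 13.54. The lowest pig of each class was again P309 and P301, and the classes overlapped. The means were 13.38 ± 0.16 in low RFI pigs and 13.36 ± 0.22 in high RFI pigs (SD, n = 6 each), a difference of 0.019 (SE 0.11, q = 0.861 from limma).

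The 3 probe sets of HP read the same pigs with unequal spread. The range over all pigs was 1.52-fold in SNOWBALL_023243_s and 1.51-fold in SNOWBALL_007999, which average 13.37 and 12.93, but 2.20-fold in SNOWBALL_007946, which averages 9.65. Between them, the deviations from class means had r between 0.88 and 0.96 (permutation p between 2e-05 and 0.00032, rho between 0.86 and 0.91 with permutation p between 9e-05 and 0.00124, r between 0.84 and 0.88 without the 2 pigs farthest from the median). In SNOWBALL_007946, P309 and P307 of the low RFI class had 8.93 and 8.99 and P301 of the high RFI class had 9.12, below all other pigs, which had 9.54 to 10.07. For this probe set, the difference was -0.16 (SE 0.22, q = 0.791), the lowest of the 3.

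ITIH4 encodes an inter-alpha-trypsin inhibitor heavy chain that in pigs is one of the main positive acute phase proteins. Through SNOWBALL_015408, low RFI pigs P307, P308 and P309 had 12.08, 12.75 and 11.77, and P310, P323 and P324 had 11.95, 11.82 and 12.22. High RFI pigs P301, P302 and P303 had 12.03, 12.49 and 12.25, and P304, P317 and P318 had 11.60, 12.15 and 12.34. The highest pig, P308, was also the highest in CRP, and the classes overlapped. The means were 12.10 ± 0.36 in low RFI pigs and 12.14 ± 0.31 in high RFI pigs (SD, n = 6 each), a difference of -0.043 (SE 0.18, q = 0.853 from limma). The dimmer SNOWBALL_037448, averaging 5.63, followed it (r = 0.95, permutation p = 1e-05, rho = 0.98 with permutation p = 1e-05, r = 0.95 without the 2 pigs farthest from the median), with a difference of 0.042. The third, SNOWBALL_037453, averaging 4.89, followed it less closely (r = 0.32, permutation p = 0.315, rho = 0.44 with permutation p = 0.175, r = 0.42 without these 2 pigs) and had a difference of -0.12.

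HPX encodes hemopexin, the plasma carrier of free heme, and ORM1 encodes alpha-1-acid glycoprotein, which binds basic drugs and lipids. HPX through SNOWBALL_001548 lay between 13.15 and 13.33 (median 13.27) in low RFI pigs and between 13.10 and 13.32 (median 13.26) in high RFI pigs, a range of 1.17-fold over all 12 pigs. The difference was 0.014 (SE 0.077, q = 0.859 from limma). The other probe set of HPX averaged 2.42, close to the median of the background control probe sets at 2.29, and did not follow the first (r = -0.22, permutation p = 0.485, rho = -0.14 with permutation p = 0.674, r = 0.51 without the 2 pigs farthest from the median). For ORM1, low RFI pigs P307, P308 and P309 had 12.99, 12.60 and 12.76, and P310, P323 and P324 had 13.13, 12.93 and 12.78. High RFI pigs P301, P302 and P303 had 12.26, 12.66 and 12.56, and P304, P317 and P318 had 12.92, 12.97 and 13.04. The lowest values of the high RFI class were those of its 3 males. The means were 12.87 ± 0.19 in low RFI pigs and 12.73 ± 0.30 in high RFI pigs (SD, n = 6 each), a difference of 0.13 (SE 0.14, q = 0.761 from limma).

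ALB encodes albumin, the main protein of plasma, TTR encodes transthyretin, which carries thyroxine and the retinol-binding protein, and AHSG encodes fetuin-A, an inhibitor of tissue calcification. ALB through SNOWBALL_011478 lay between 14.01 and 14.13 (median 14.05) in low RFI pigs and between 13.98 and 14.06 (median 14.03) in high RFI pigs. The difference was 0.034 (SE 0.070, q = 0.825 from limma, exact permutation p = 0.216). The other probe set of ALB averaged 1.43, below the median of the background control probe sets, and was not above background. TTR through SNOWBALL_021502_s lay between 13.77 and 13.97 (median 13.88) in low RFI pigs and between 13.90 and 13.94 (median 13.92) in high RFI pigs, a difference of -0.043 (SE 0.071, q = 0.812 from limma, exact permutation p = 0.171). Of the 4 probe sets of TTR, 3 averaged 12.93 to 13.90 and had differences from -0.077 to -0.013.

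The fourth probe set of TTR, SNOWBALL_025438, averaged 6.35 and had a range of 3.96-fold. Low RFI pigs P310 and P324 had 7.49 and 5.50, the highest and lowest values, and the other 4 low RFI pigs had 6.07 to 6.56, while high RFI pigs had 6.11 to 6.59. P310 and P324 were also the highest and lowest pigs in SNOWBALL_021502_s, at 13.97 and 13.77. Over 12 pigs, deviations from class means in these probe sets had r = 0.77 (permutation p = 0.0525) but rho = 0.25 (permutation p = 0.495). Without the 2 pigs farthest from the median of SNOWBALL_021502_s, r was 0.60. With SNOWBALL_020936_s and SNOWBALL_026794_s, rho was 0.24 and 0.042 (permutation p = 0.498 and 0.912). The difference of SNOWBALL_025438 was 0.045 (SE 0.24, q = 0.860 from limma). AHSG was represented only by SNOWBALL_031592, at 1.59 ± 0.13 in low RFI pigs and 1.74 ± 0.32 in high RFI pigs (SD, n = 6 each), below the median of the background control probe sets at 2.29. AHSG mRNA was thus not measured above background here, and its difference was -0.15 (SE 0.14, q = 0.738 from limma).

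The spread between pigs has to be read with the position of each probe set on the intensity scale, since values near the top of an array cannot rise much further. Of the 21 probe sets, 9 averaged over 12 and 5 over 13. ALB SNOWBALL_011478 came within 0.027 of the highest value of an array and ranked between 2 and 4 of 47845 on the 12 arrays, and TTR SNOWBALL_021502_s came within 0.18 and ranked between 6 and 9. HP SNOWBALL_023243_s came within 0.64 and HPX SNOWBALL_001548 within 0.80. These ranks are positions on the scale and not an order of mRNA abundance, because probe sets differ in affinity. Over all probe sets, the median SD between pigs was 0.23 for means from 8 to 10, 0.20 from 10 to 12, 0.14 from 12 to 13 and 0.077 above 13.

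Against probe sets of like level (mean within 0.5), the bright members fell on both sides. The SD of ALB SNOWBALL_011478 was 0.045, beside a median of 0.067 in its window of 17 probe sets, and that of TTR SNOWBALL_021502_s was 0.053, beside 0.068. HPX SNOWBALL_001548 had 0.077, beside 0.096. In contrast, HP SNOWBALL_023243_s had 0.18, beside 0.093, ORM1 had 0.25, beside 0.12, and ITIH4 SNOWBALL_015408 had 0.32, beside 0.155. The CRP probe sets had 1.60 and 1.63, beside 0.21 and 0.23, and the LBP probe sets had 0.81 to 0.87, beside 0.22 to 0.24. Whether the top of the scale narrowed the class differences of ALB, TTR, HPX and HP was not tested.

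**Figure D3:**
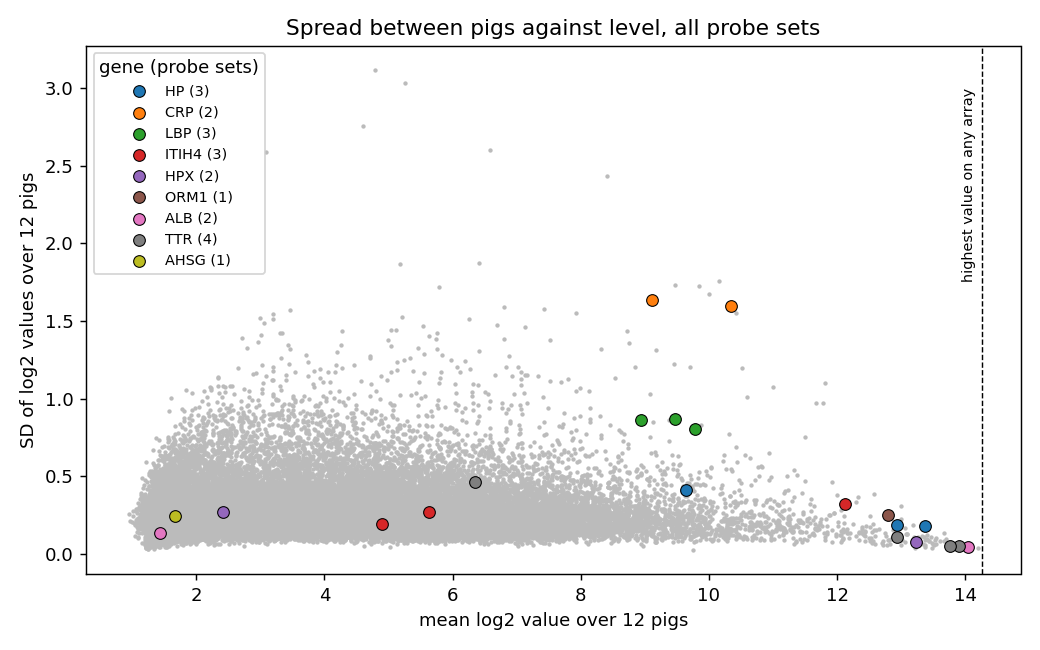
SD of the log2 values over the 12 pigs against their mean, for all 47845 probe sets (grey) and the 21 members (colored), with the highest value on any array of 14.26 as a dashed line. The spread narrows toward the top of the scale, where ALB and TTR lie, while CRP and LBP stand above most probe sets of like level.

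Deviations of pigs from their class means were compared between genes through the brightest probe sets, over 36 pairs of the 9 genes. HP and CRP had r = 0.84 (permutation p = 0.0105), HP and HPX had r = 0.78 (permutation p = 0.00473), and CRP and HPX had r = 0.78 (permutation p = 0.00296). Their adjusted p-values over the 36 pairs were 0.126, 0.085 and 0.085, so that 0 pairs passed 0.05. Spearman's rho was 0.53, 0.69 and 0.73 (permutation p = 0.0794, 0.0235 and 0.0106, adjusted p = 0.437, 0.282 and 0.282). The relations rested on pigs P301 and P309, the pigs farthest from the median in HP, CRP and HPX alike. Without them, r was 0.15 for HP and CRP, 0.45 for HP and HPX and 0.46 for CRP and HPX. Within low RFI pigs, r was 0.69, 0.79 and 0.76 for these pairs (exact permutation p = 0.135, 0.0542 and 0.0833), and within high RFI pigs it was 0.95, 0.78 and 0.80 (exact permutation p = 0.0389, 0.0694 and 0.0194).

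No such relation was seen for LBP. It had r = 0.027 with HP (permutation p = 0.936, adjusted p = 0.936) and r = 0.031 with CRP (permutation p = 0.926, adjusted p = 0.936). Spearman's rho was 0.20 for both (permutation p = 0.535 and 0.577), and without P317 and P323, the pigs farthest from the median of LBP, r was 0.25 and 0.22. P301, the lowest pig in CRP and HP, had an LBP value of 10.38, above the mean of its class, and P309 had 9.07, below the mean of its class. With ITIH4, LBP had r = 0.45 (permutation p = 0.182, adjusted p = 0.614), rho = 0.50 (permutation p = 0.120) and r = 0.45 without P317 and P323.

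**Figure D4:**
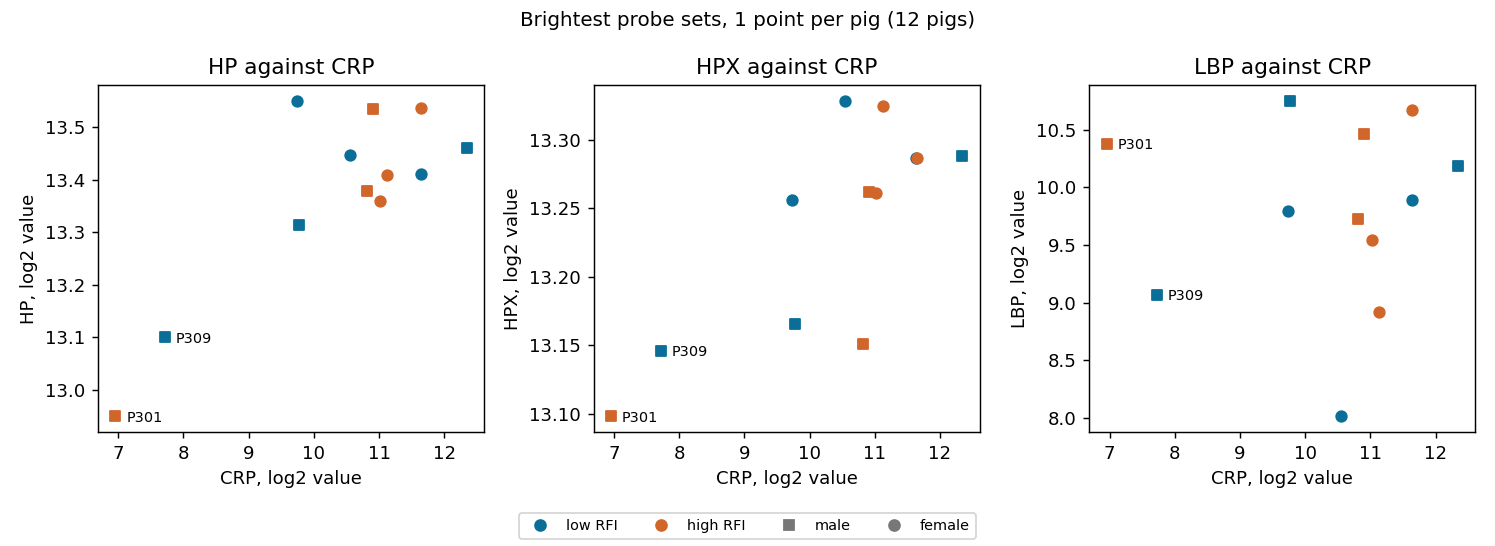
Log2 values of HP, HPX and LBP against CRP, 1 point per pig (blue: low RFI, orange: high RFI, squares: males, circles: females). P301 and P309 lie at the lower left for HP and HPX, while for LBP P301 had 10.38, above the mean of its class, and P309 had 9.07, below the mean of its class.

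**Figure D5:**
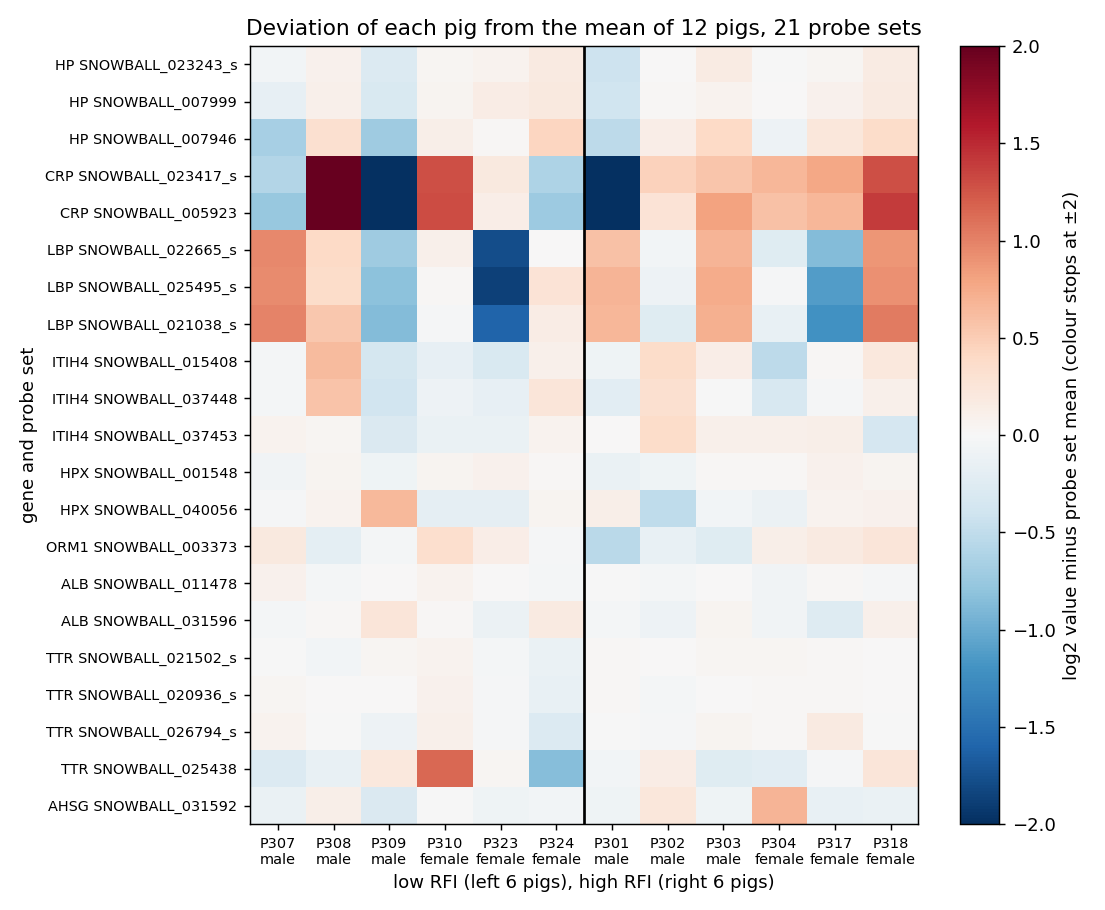
Log2 value minus the mean over 12 pigs for each of the 21 probe sets (rows) in low RFI pigs (left 6 columns) and high RFI pigs (right 6 columns), with the color scale ending at ±2. The rows of CRP and LBP carry the strongest colors, and probe sets of these genes repeat the same pattern of pigs.

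The genes most like each member across the 12 pigs, by the correlation of deviations from class means among 12129 genes above the median background, are given as a description. For CRP they were GNPTG (r = 0.97), SLC13A3 (r = 0.92) and TOP3A (r = 0.88), and for HP they were TOP3A (r = 0.90), GNPTG (r = 0.90) and NRL (r = 0.88). LBP was most like PAPLN (r = 0.91), UAP1L1 and SLC26A7 (r = 0.89 each). ITIH4 was most like LOC100156325 (r = 0.93), PLA2G15 and TMCO4 (r = 0.87 each), HPX was most like TMEM56 (r = 0.88), SPRYD4 (r = 0.87) and PPAT (r = 0.86), and ORM1 was most like SF3A1 (r = 0.94), OTUD6A (r = 0.89) and JMJD7 (r = 0.88). ALB was most like GC, the vitamin D-binding protein of plasma (r = 0.91), RPL26L1 (r = 0.90) and LRP1B (r = 0.87), and TTR was most like RFX5 (r = 0.96), HIRIP3 (r = 0.95) and EPHX2 (r = 0.89). AHSG, at background level, was most like CLPS (r = 0.88), UBXN11 and CNTNAP4 (r = 0.85 each). Each r was picked as one of the 3 highest of all these genes over 12 pigs. None was computed without P301 and P309, on which the relations among HP, CRP and HPX rested.

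Sex was balanced within the classes and could be compared with RFI class as a covariate. Of the 21 probe sets, 0 differed between males and females at q under 0.30, against 0.0397% of all probe sets, and 1 at an unadjusted p under 0.05, against 6.11%. This was ORM1, with 12.64 ± 0.24 in males and 12.96 ± 0.12 in females, a difference of -0.33 (SE 0.11, q = 0.672 from limma). CRP averaged 9.75 ± 2.06 in males and 10.95 ± 0.72 in females, with the lowest pigs P301 and P309 among the males, a difference of -1.20 (SE 0.78, q = 0.828 from limma). LBP differed by 0.62 (SE 0.39, q = 0.820), with 10.09 ± 0.61 in males and 9.47 ± 0.91 in females. An interaction of sex and RFI class was called in 0 of 21 probe sets, against 0% of all, and was under an unadjusted p of 0.05 in 0 of 21, against 4.44%, with a lowest p of 0.103 from limma.

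Other genes of the response were described through 1 probe set per gene, and 0 were called at q under 0.30, against 0.0436% of all genes. With the filter on SD of the methods, which kept 10726 genes and called 3.33% of them, 5 genes of the lists were called. IL6ST (q = 0.142), TLR4 (q = 0.148) and the marker MRC1 (q = 0.093) were higher in low RFI pigs, and FOXA1 (q = 0.242) and the marker GZMB (q = 0.251) were lower. These directions, and those given below for the lists, follow the sample labels. For the called genes just named, and for TTPA below, the paper gives the opposite direction, and this conflict was not resolved. IL6ST was 1 of 17 signal transducers kept, TLR4 1 of 11 partners and receptors, and MRC1 1 of 8 macrophage markers. FOXA1 was 1 of 8 transcription factors kept and GZMB 1 of 10 lymphocyte markers. In every other list 0 of the genes kept were called, so that no list held more than 1. The q-values that follow are those of the fit to all probe sets. At an unadjusted p under 0.05 stood 9.13% of all genes, 4.68% higher and 4.45% lower in low RFI pigs. Of 26 genes listed as other positive acute phase proteins, 1 was higher and 0 lower, with a median difference of 0.012 beside -0.020 over all genes. This was SAA4, a constitutive serum amyloid A, with 3.50 ± 0.42 in low RFI pigs and 2.69 ± 0.62 in high RFI pigs, a difference of 0.81 (SE 0.27, q = 0.519 from limma). SAA4 was dim, at a mean of 3.09 beside 2.29 for the median of the background control probe sets. The inducible serum amyloid A genes on the list were not named in the annotation used here. Of 25 genes listed as other negative or constitutive plasma proteins, 1 was higher and 2 lower, with a median of -0.033. The higher gene was TTPA, the hepatic vitamin E transfer protein, with a difference of 0.47 (q = 0.546). Lower were IGFALS, which stabilizes insulin-like growth factors in plasma, with -0.62 (q = 0.519), and PROC, the anticoagulant protein C, with -0.22 (q = 0.540). Not every listed gene, TTPA included, was checked to fit the heading of its list.

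Among 18 cytokine receptors and signal transducers, 1 was higher and 0 lower at an unadjusted p under 0.05, with a median difference of -0.061. This was IL6ST, the signaling subunit of the interleukin 6 receptor, with 8.32 ± 0.27 in low RFI pigs and 7.85 ± 0.25 in high RFI pigs, a difference of 0.47 (limma q = 0.513, SE 0.14). Of its 5 probe sets, 3 had this sign. Among 14 liver transcription factors that drive plasma protein genes, 1 was higher and 3 lower, with a median of -0.087. HNF4G differed by 0.66 (q = 0.595), FOXA1 by -0.40 (q = 0.536), the clock-controlled DBP by -0.68 (q = 0.580) and CEBPA by -0.43 (q = 0.589), for which 1 of 2 probe sets was below 0.

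Of 15 binding partners and clearance receptors of the members, 3 were higher and 1 lower at an unadjusted p under 0.05, with a median difference of -0.041. The lipopolysaccharide receptor TLR4 differed by 0.48 (q = 0.519, with 7 of 9 probe sets above 0) and its partner LY96 by 0.27 (q = 0.575). BPI, which binds lipopolysaccharide like LBP, differed by -0.34 (q = 0.549). LY96 and BPI were dim, at means of 3.08 and 3.67 beside 2.29 for the median of the background control probe sets. CD163, the scavenger receptor of the haptoglobin-hemoglobin complex, had 7.08 ± 0.63 in low RFI pigs and 6.40 ± 0.35 in high RFI pigs, a difference of 0.68 (SE 0.26, q = 0.540 from limma), which was seen in 1 of its 2 probe sets. CD163 is also a macrophage marker. Of 9 Kupffer cell and macrophage markers, 2 were higher (MRC1, with a difference of 0.55 and q = 0.513, and CD163) and 0 lower, and the mean level of the list per pig lay between 8.18 and 8.62 in low RFI pigs and between 7.88 and 8.35 in high RFI pigs. Its part in these receptor values was not tested, and fewer cells of a type and less mRNA per cell cannot be told apart in bulk liver. For neutrophils, 0 of 7 markers were higher or lower, with a mean level between 3.66 and 4.01 in low RFI pigs and between 3.74 and 4.08 in high RFI pigs. Among the other lists of markers, of lymphocytes, erythroid cells, endothelial cells, stellate cells, bile duct cells and hepatocytes, between 0 and 1 gene per list had an unadjusted p under 0.05, with 2 genes higher (ARG1 and RGS5) and 1 lower (GZMB).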

How the data were processed

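Liver RNA was hybridized to Affymetrix snowball arrays, 1 array per pig. The authors used GCOS 1.1.1 for the raw data and RMA for normalization, and the deposited values are log2 intensities, 1 per probe set, background-corrected and quantile-normalized over arrays. For the RNA column and the labeling kit, the labels and the paper name different products.

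All 47845 probe sets were fitted by limma 3.58.1 (R 4.3.3) on RFI class alone, the design of the study, but without its filter on SD. Storey's q-value was taken over all of them, with lambda from 0.05 to 0.90. The fit was tested on simulated data. Sex was fitted beside RFI class, then with their interaction. Where 1 value per gene was needed, the probe set of highest mean was used. Gene names came from the platform annotation, with 1 symbol for 26426 probe sets and none for 21419. Correlations used deviations from class means and 1e+05 permutations within classes. Alternatives changed the filters, covariates, scaling, array weights, variance model, pigs and adjustment. P301 and P309 were left out together only after their values had been seen. Precision is limited by the 6 pigs per class.

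The members, the lists and the GC range of the background were chosen with earlier results of these data known. The text names all members, the 3 genes most like each, and from each list at most 4 genes with an unadjusted limma p under 0.05. FGA, FGB, NNMT and HRG are named for their correlations with CRP or HP, and TXNIP for the check of signs. Sequences and RT-qPCR were not used here.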

Additional observations from a re-analysis of the deposited data

Results flagged for a closer look

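Within each class of 6 pigs, a search was made for a pig far from its nearest neighbor. It covered the 21 probe sets of the members and the genes named from the lists for a limma p under 0.05, unadjusted. No other gene named here was searched. A pig was flagged when its gap took more of the range of the class than Dixon's critical value at 95% allows. Of 76 groups tested, 9 had such a pig, where chance gives about 1 in 20 if values within a class are normally distributed. That was not tested. These groups were also not independent, since probe sets of 1 gene were tested in the same pigs, which makes the count more variable. The count therefore cannot be set directly against that share. In high RFI pigs, P301 was far below the others in both probe sets of CRP, at 6.96 (next pig 10.82) and 6.21 (next pig 9.38), and in SNOWBALL_023243_s and SNOWBALL_007999 of HP, at 12.95 (next pig 13.36) and 12.53 (next pig 12.94). P302 was low in SNOWBALL_020936_s of TTR, at 13.72, and in the dim SNOWBALL_040056 of HPX, at 1.91. In low RFI pigs, P309 was high in the same probe set of HPX, at 3.07. Among the other genes, P318 of the high RFI class was high in SAA4, at 3.86, and P317 of the same class was high in RGS5, at 7.23.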

How the results depend on the processing

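No difference of a member was called under any alternative run, and the lowest q was 0.547. In limma, the lowest unadjusted p under any of them was 0.00951, for the dim ALB SNOWBALL_031596 with the GC-rich background as a covariate. The sign turned in 20 of 265 member values over 14 alternatives and in 24 of 252 that left out a single pig, and the cause was not tested. Several of the 14 cannot change a difference, so that their signs were fixed in advance. These are the filters on SD and on background, sex as a covariate in this balanced design, the variance model, the adjustment and the permutation test. The 20 of 265 thus understates how often a sign turned where it could. With the GC-rich background as a covariate, the difference became 0.26, 0.38 and 0.44 in LBP SNOWBALL_022665_s, SNOWBALL_025495_s and SNOWBALL_021038_s, -0.030 in HP SNOWBALL_007999, -0.028 in HPX SNOWBALL_001548 and -0.054 in TTR SNOWBALL_025438. Without a turn of sign, the same covariate moved CRP SNOWBALL_023417_s and SNOWBALL_005923 to -0.90 and -0.99 and ORM1 to 0.016. In males alone it was 0.38 and 0.11 in CRP SNOWBALL_023417_s and SNOWBALL_005923, -0.025 in HP SNOWBALL_007999, and 0.023 and -0.020 in TTR SNOWBALL_020936_s and SNOWBALL_025438. In females alone it was 0.025 in HP SNOWBALL_007946, -0.00053 in HPX SNOWBALL_001548, -0.11 in HPX SNOWBALL_040056 and -0.028 in ORM1. Without pigs P301 and P309, chosen after seeing the data, it was -0.0069 and -0.0071 in HP SNOWBALL_023243_s and SNOWBALL_007999, 0.00025 in ITIH4 SNOWBALL_015408 and -0.00032 in TTR SNOWBALL_025438. The mean of all probe sets of HP gave -0.045.

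Leaving out 1 pig at a time, HP SNOWBALL_023243_s ran from -0.063 to 0.075, HP SNOWBALL_007999 from -0.070 to 0.072, CRP SNOWBALL_023417_s from -0.81 (without P301) to 0.40 (without P309), and CRP SNOWBALL_005923 from -0.88 to 0.32 (without the same pigs). LBP SNOWBALL_022665_s ran from -0.56 (without P307) to -0.0092 (without P323), and ORM1 from 0.037 (without P301) to 0.19 (without P318). LBP SNOWBALL_021038_s ran from -0.54 (without P317) to 0.020 (without P323), ITIH4 SNOWBALL_015408 from -0.17 to 0.027, ITIH4 SNOWBALL_037448 from -0.066 to 0.12, HPX SNOWBALL_001548 from -0.012 to 0.034, TTR SNOWBALL_020936_s from -0.030 to 0.014, and TTR SNOWBALL_025438 from -0.18 to 0.22.

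Over all probe sets, 15 were called between classes, against 952 with the filter on SD of the methods. Among the 952 were 5 genes of the lists and 0 of the 8 member probe sets kept. With sex as a covariate there were 25 calls, and with the GC-rich background as a covariate 0. Males alone gave 2, females alone gave 0, and leaving out P301 and P309 gave 8. After Benjamini-Hochberg adjustment of limma's p-values 0 were called, while 3490 were under 0.05 unadjusted. Leaving out 1 pig gave 1 to 1345 calls, the highest without P317. Sex gave 19 calls, 37 without the lowest 10% of SD and 11 to 66 with 1 pig left out, and the interaction gave 0, and 0 to 6 with 1 pig left out. No paired analysis was possible because the labels do not say which pigs are siblings, although the study selected siblings, and the replicate numbers were given in accession order. Precision was limited by the number of pigs, and for the dim probe sets of ALB, HPX and AHSG by background.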

Other observations

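CRP, HP and LBP were also set beside the 26 genes listed as other positive acute phase proteins, over 78 pairs chosen after seeing the data. The list also holds the constitutive SAA4. Whether each listed gene, HRG included, rises or falls in the acute phase response of pigs was not checked. Of the 78 pairs, 0 passed an adjusted p of 0.05. By Pearson's r the lowest adjusted p was 0.145, for CRP with the fibrinogen chains FGB (r = 0.73, permutation p = 0.00323) and FGA (r = 0.75, permutation p = 0.00373). Without the 2 pigs farthest from the median of CRP, r was 0.48 for FGB and 0.45 for FGA.

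By Spearman's rho the lowest adjusted p was 0.071, for CRP with FGA (rho = 0.79, permutation p = 0.00184), HP with NNMT (rho = 0.80, permutation p = 0.00273) and HP with HRG (rho = -0.74, permutation p = 0.00244). Pearson's r was 0.73 for HP with NNMT (permutation p = 0.0231, adjusted p = 0.225) and -0.38 for HP with HRG (permutation p = 0.162, adjusted p = 0.506). Without the 2 pigs farthest from the median of HP, r was 0.66 for NNMT and -0.67 for HRG. For FGB with CRP, rho was 0.74 (permutation p = 0.00807, adjusted p = 0.116).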
